A study of Mus musculus with 4 samples.

Results

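CC chemokines were followed on 4 expression arrays of primary mouse chondrocytes, the cells that make cartilage matrix. The members are the 7 genes Ccl2, Ccl5, Ccl7, Ccl8, Ccl9, Ccl11 and Ccl20, chosen by name out of 37042 genes or unnamed transcripts kept. They were chosen with earlier results of these data known. Each member was read by 1 probe. The Ccl2 probe (NM_011333) was printed as 10 spots on each array, and the other 6 members had 1 spot each. Their transcripts are NM_013653 for Ccl5, NM_013654 for Ccl7, NM_021443 for Ccl8, NM_011338 for Ccl9, NM_011330 for Ccl11 and NM_016960 for Ccl20.

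The cells came from 6-day-old mice on the C57BL/6J background, from Rela fl/fl mice and from littermates that also carried Prrx1-Cre. Both kinds of mice carried the floxed Rela allele, and Prrx1-Cre is active in early limb mesenchyme, from which limb chondrocytes form. Cells of each genotype received 10 ng/mL TNF for 3 days or were cultured without it, and each of the 4 combinations was hybridised to 1 array. The number of mice behind each culture is not given in the sources used here. The Rela fl/fl cells are called control cells, as in the submitters' labels, and the arrays of the Prrx1-Cre;Rela fl/fl cells are called cKO-labelled after the submitters' name for them. With 1 array per combination no test between conditions was run, so every difference below is a measured difference between single arrays.

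CC chemokines are small secreted proteins with a pair of adjacent cysteines near the amino terminus, and they attract leukocytes through G-protein-coupled CC receptors. Ccl2 and Ccl7 attract monocytes through Ccr2, Ccl5 binds Ccr1 and Ccr3, and Ccl9 binds Ccr1. Ccl8 attracts leukocytes, Ccl11 attracts eosinophils, and Ccl20 is the ligand of Ccr6. TNF releases NF-κB dimers, of which Rela is a main subunit, from their IκB inhibitors, and Ccl2, Ccl5 and Ccl20 are among the genes known to be induced through κB sites.

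Promoter sequence was looked up to see which members carry a κB motif near their start. The RefSeq promoter table of GRCm38.p6 held 3 of the 7 members. It held none for Ccl2, Ccl5, Ccl7 and Ccl11. The 120 bases before the start are shown for Ccl8, Ccl9 and Ccl20, because they place members with and without a κB match beside the signals that follow. Capitals mark matches to the κB motif, GGG followed by any 2 bases and TTTCC, searched on both strands. The Ccl8 sequence lies at chr11:82115065-82115184 on the plus strand, the Ccl9 sequence at chr11:83578637-83578756 on the minus strand and the Ccl20 sequence at chr1:83116646-83116765 on the plus strand.
Ccl8: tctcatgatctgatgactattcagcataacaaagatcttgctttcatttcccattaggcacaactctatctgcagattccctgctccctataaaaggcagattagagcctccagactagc
Ccl9: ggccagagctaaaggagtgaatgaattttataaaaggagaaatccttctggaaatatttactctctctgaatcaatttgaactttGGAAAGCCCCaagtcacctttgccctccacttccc
Ccl20: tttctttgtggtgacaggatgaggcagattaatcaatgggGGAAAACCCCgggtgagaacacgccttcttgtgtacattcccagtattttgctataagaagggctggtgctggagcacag

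The Ccl20 match lay 80 to 71 bases before the start, and on its own strand it reads GGGGTTTTCC. The Ccl9 match lay 35 to 26 bases before the start and reads GGGGCTTTCC on its own strand. No match to the motif was found for Ccl8 in its promoter window. Over 32851 promoters of the table, each from 250 bases before to 50 after the start, 1.63% held the motif. The AP-1 motif TGANTCA was matched 53 to 47 bases before the start of Ccl9, and 7.81% of the promoters held it. It did not overlap the κB match. A match is a description of letters and does not show that a factor was bound in these cells.

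Of the 7 members, 4 were well above background on all 4 arrays. These were Ccl2, Ccl5, Ccl7 and Ccl9. Ccl8 was well above background on 3 arrays, and Ccl11 and Ccl20 on none. The plot of the 7 members by array shows their intensity, which is the array scanner's processed brightness in array units. Differences were taken after each array was divided by the 75th percentile of its transcript spots, which lay between 590 and 634 units. A member was counted as higher or lower at a difference of 2-fold when the brighter of the compared signals was well above background, and a value not well above background was raised to its array's floor, the lowest signal that was, or kept where it was already above the floor. The fold against such a value is a lower bound.

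**Figure D1:**
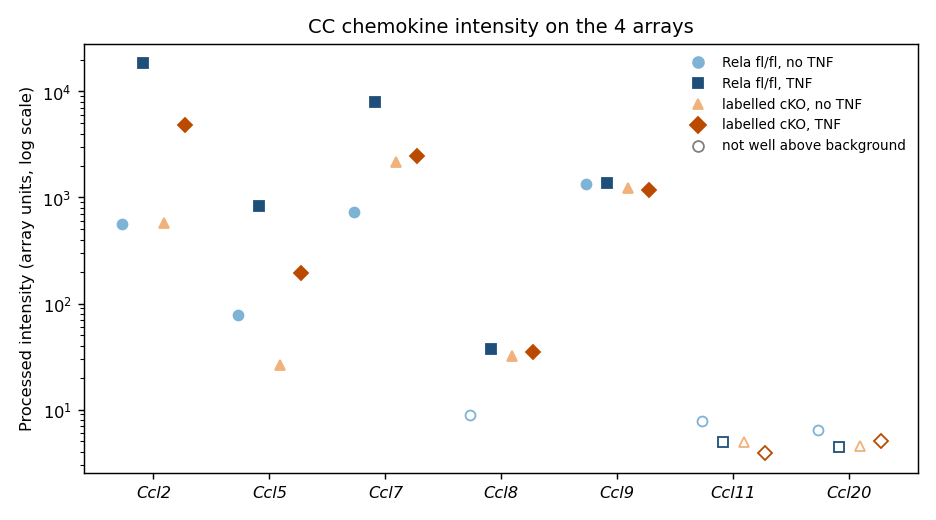
Processed intensity (array units, log scale) of the 7 CC chemokines on the 4 arrays, with 1 point per gene and array and open symbols where the probe was not well above background. TNF arrays stand above the arrays without TNF for Ccl2 and Ccl5 in both genotypes and for Ccl7 most widely in control cells, while the 4 points of Ccl9 lie between 1170 and 1383.

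TNF was followed by higher signals of 3 members in control cells and of 2 members on the cKO-labelled arrays. In control cells the monocyte attractants Ccl2 and Ccl7 were 32.5-fold and 10.9-fold higher with TNF, and Ccl5, which attracts T cells and monocytes, was 10.5-fold higher. On the cKO-labelled arrays, Ccl2 was 9.01-fold and Ccl5 7.92-fold higher, and Ccl7 was 1.24-fold higher. With TNF, all 3 were more than 3-fold lower on the cKO-labelled array than in control cells. Of all genes tested, 2.39% were higher with TNF in control cells and 1.04% on the cKO-labelled arrays, and 3.19% were lower on the cKO-labelled array with TNF. As the members were chosen with earlier results of these data known, their counts beside these shares are a description and not a test. The 4 comparisons share arrays, so they are not independent of each other. As these are bulk cultures, fewer cells of a type and less RNA per cell cannot be told apart.

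Several facts about the arrays bear on all of these values. The 4 arrays shared 1 slide and 1 scan. Between 50.9% and 58.1% of the 55619 probes kept were well above background, and no spot was saturated. Rela itself was not lower on the cKO-labelled arrays. Its intensity was 17380 without and 21472 with TNF in control cells, and 21528 without and 23707 with TNF on the cKO-labelled arrays. Whether this probe reads the deleted part of Rela is not given in the sources used here, so the deletion was not checked by it. The paper that reported these data describes PCR of the recombined allele in chondrocytes of this genotype, and RT-PCR of the deletion across tissues. The cKO-labelled arrays also differed in sex-linked genes. Xist, the RNA that coats the silenced X, was at least 27.7-fold lower on the cKO-labelled array without TNF, and the Y-linked Eif2s3y was 3.51-fold higher, with Ddx3y and the brighter Uty probe also past the limit. Control cells had signals of both kinds, with Xist at 439 without and 465 with TNF, and Eif2s3y at 1090 and 1135. Xist was not well above background on the cKO-labelled arrays. Sex and genotype label therefore cannot be told apart in any comparison between genotypes. Groups of spots that were bright on 1 array alone, called patches here, held between 1.04% and 10.7% of the spots of an array. A spot was counted as lying in a patch when at least 3 of the 54 other positions within 5 rows and 2 columns were 2-fold brighter on that array than on each of the other 3.

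Ccl2, which brings monocytes into inflamed tissue, was read by 10 spots on each array, so its spread within an array could be measured. In control cells its mean intensity was 563 ± 41.8 without TNF and 18366 ± 825 with TNF (SD over 10 spots of 1 array). On the cKO-labelled arrays it was 580 ± 23.2 without TNF and 4856 ± 229 with TNF. The SD covers spots of 1 hybridisation and not the spread between cultures. The lowest spot with TNF, 4444 on the cKO-labelled array, stood far above the highest spot without TNF, 631 in control cells. The spots of the arrays without TNF overlapped between genotypes, and those with TNF did not.

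**Figure D2:**
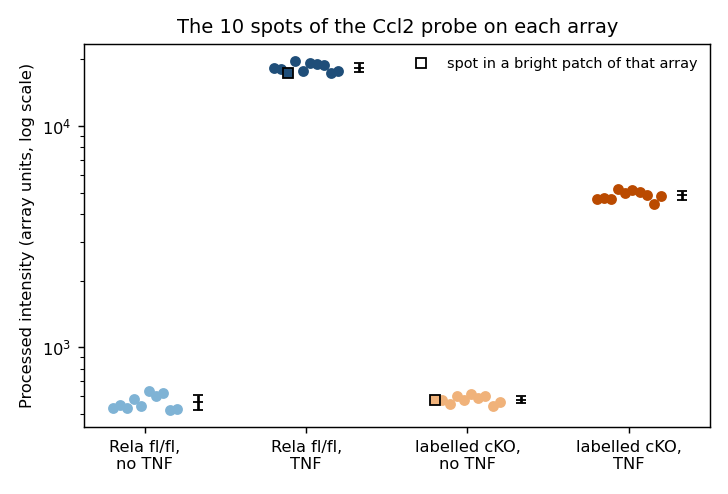
Processed intensity (array units, log scale) of each of the 10 spots of the Ccl2 probe on the 4 arrays, with the mean and SD over spots at the right of each group and squares for spots in a bright patch. Without TNF both genotypes lie between 520 and 631, and with TNF the cKO-labelled array lies between 4444 and 5170, below the 17290 to 19591 of control cells.

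The log2 difference of Ccl2 with TNF was 5.02 in control cells and 3.17 on the cKO-labelled arrays. In both it was the largest rise among the 20482 genes well above background on all 4 arrays. Between genotypes Ccl2 differed by a log2 of -0.0013 without TNF, and it was 3.61-fold lower on the cKO-labelled array with TNF, a log2 difference of -1.85. The log2 TNF difference on the cKO-labelled arrays minus that of the control was thus -1.85, while the median of this quantity over the 20482 genes was 0.05. Of its spots, 1 lay in a patch in control cells with TNF and 1 on the cKO-labelled array without TNF. Over the alternatives in processing the TNF difference in control cells ranged from 4.83 to 5.06, those without the patch spots included.

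Ccl5, a ligand of Ccr1 and Ccr3, was higher with TNF in both genotypes and lower on both cKO-labelled arrays. In control cells its intensity was 77.9 without and 823 with TNF. On the cKO-labelled arrays it was 26.4 without and 194 with TNF. Both arrays with TNF were above both without it, and within each treatment the cKO-labelled array was the lower.

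The log2 difference of Ccl5 with TNF was 3.39 in control cells and 2.99 on the cKO-labelled arrays, the rank of 17 and of 3 among the 20482 genes. It was 3.04-fold lower on the cKO-labelled array without TNF and 4.04-fold lower with TNF, so that the 2 TNF differences were 0.41 apart on the log2 scale. For probes with 10 spots, the SD of a difference between single spots was 0.14 overall and 0.33 at signals under 0.1 of the 75th percentile, where the Ccl5 spot of the cKO-labelled array without TNF lay. The values changed when background correction and normalization were changed together. With normexp on the spot and local background signals and quantile normalization, the TNF differences were 2.61 and 1.53, and the difference without TNF between genotypes was -0.59, short of the limit. None of its spots lay in a patch.

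Ccl7, which attracts monocytes as Ccl2 does, was higher with TNF in control cells and nearly level on the cKO-labelled arrays. Its intensity in control cells was 724 without and 7919 with TNF. On the cKO-labelled arrays it was 2148 without and 2470 with TNF. The array of control cells with TNF was the highest of the 4 and that without TNF the lowest, with both cKO-labelled arrays between them.

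The log2 difference of Ccl7 with TNF was 3.44 in control cells and 0.31 on the cKO-labelled arrays, and its rank among the 20482 genes was 15 and 1690. It was 2.88-fold higher on the cKO-labelled array without TNF and 3.06-fold lower with TNF, so that the genotype difference ran in opposite directions by treatment. The log2 TNF difference on the cKO-labelled arrays minus that of the control was -3.14. Among the 4 members for which this quantity could be computed, Ccl2 and Ccl7 were at -1 or below, and 2.25% of the 20482 genes were. With normexp and quantile normalization Ccl5 was also past -1, at -1.09.

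The single Ccl7 spot lay in a bright patch on the cKO-labelled array without TNF and on no other array. Of its 52 transcript neighbours there, 20 were bright on that array alone, with a median intensity of 461 against 8.19 for the same spots on the other arrays. These 20 neighbours stood 62.4 to 1794 units above the other arrays, and Ccl7 stood 1425 units above control cells without TNF. The part of the patch in the value of 2148 was not tested, and the values of 0.31, 1.52 and -3.14 all use it. The TNF difference of 3.44 in control cells and the difference of -1.61 between genotypes with TNF do not use that array.

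**Figure D3:**
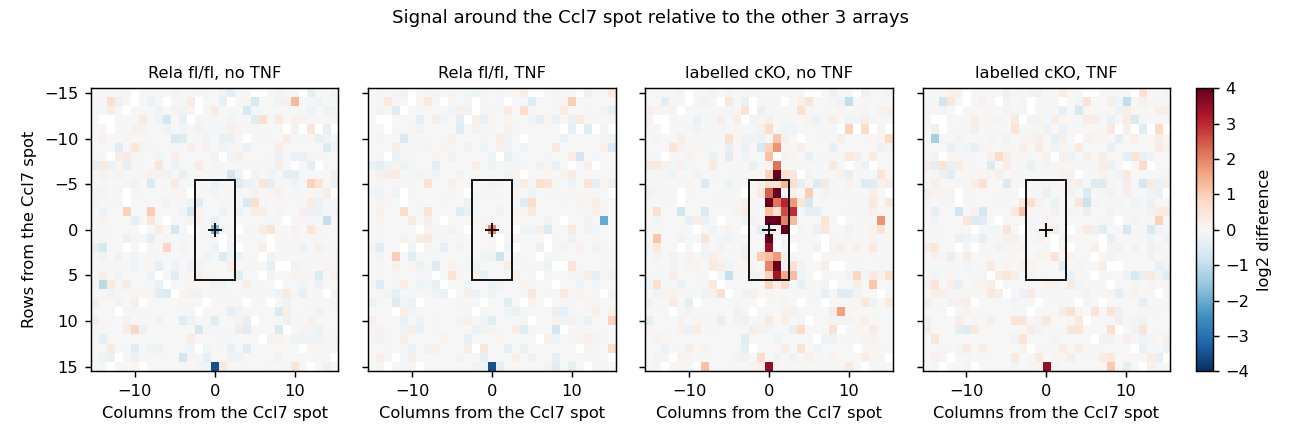
Signal of the spots around Ccl7 on each array, as the log2 difference from the median of the other 3 arrays, by rows and columns from the Ccl7 spot (cross); the box marks the 11 rows and 5 columns searched for bright neighbours. A column of bright spots runs through the box on the cKO-labelled array without TNF, where 20 of 52 neighbours were bright, and on none of the other 3.

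Without TNF, 1 member was higher on the cKO-labelled array and 1 was lower. Ccl7 was the higher, with its spot in the patch, and Ccl5 the lower. Of all genes tested, 3.53% were higher and 4.38% lower on that array. Ccl2 and Ccl9 stayed within 1.13-fold between genotypes.

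Ccl9, a ligand of Ccr1 made by many cells of the myeloid and skeletal lineages, had a clear signal that barely moved. Its intensity was 1344 without and 1383 with TNF in control cells, and 1227 without and 1170 with TNF on the cKO-labelled arrays. The log2 difference with TNF was 0.03 in control cells and 0.04 on the cKO-labelled arrays. Both were under the SD of 0.09 between single spots at signals of 1 to 10 times the 75th percentile. Between genotypes it was lower on the cKO-labelled arrays by 1.13-fold in both treatments, with log2 differences of -0.18 and -0.17. Its spot lay in a patch on the cKO-labelled array without TNF, where 11 neighbours were bright and stood 58.0 to 427 units above the other arrays. The part of the patch in the 1227 units was not tested, and the differences of 0.04 with TNF and -0.18 without it both use that value. It is the member with both a κB match shown above and a signal well above background on every array.

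Ccl8, an attractant of leukocytes, was near the detection limit. Its intensity was 36.9 with TNF in control cells and 32.0 without and 35.1 with TNF on the cKO-labelled arrays. In control cells without TNF it was 8.96 and not well above background, below the floor of 32.2 on that array. With TNF it was therefore at least 1.14-fold higher in control cells, short of the limit. On the cKO-labelled arrays it was 1.18-fold higher with TNF, and with TNF the genotypes differed by a log2 of -0.0020.

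Ccl11, the eosinophil attractant eotaxin, and Ccl20, the Ccr6 ligand, gave no signal well above background. Ccl11 ranged from 3.86 to 7.75 intensity units and Ccl20 from 4.48 to 6.46, against floors of 15.7 to 32.2 on the 4 arrays. No fold was taken for either, with TNF or without. Ccl20 had the κB match 80 to 71 bases before its start, and such a match gives no level.

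The comparison of both TNF differences places Ccl2, Ccl5 and Ccl7 beside other genes known to respond to TNF. In a list of 13 such genes and TNF receptors, 7 were higher with TNF in control cells and 3 on the cKO-labelled arrays, and 6 were lower on the cKO-labelled array with TNF. The median log2 difference with TNF was 1.36 in control cells and 0.55 on the cKO-labelled arrays, against 0.01 and 0.06 over all genes.

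**Figure D4:**
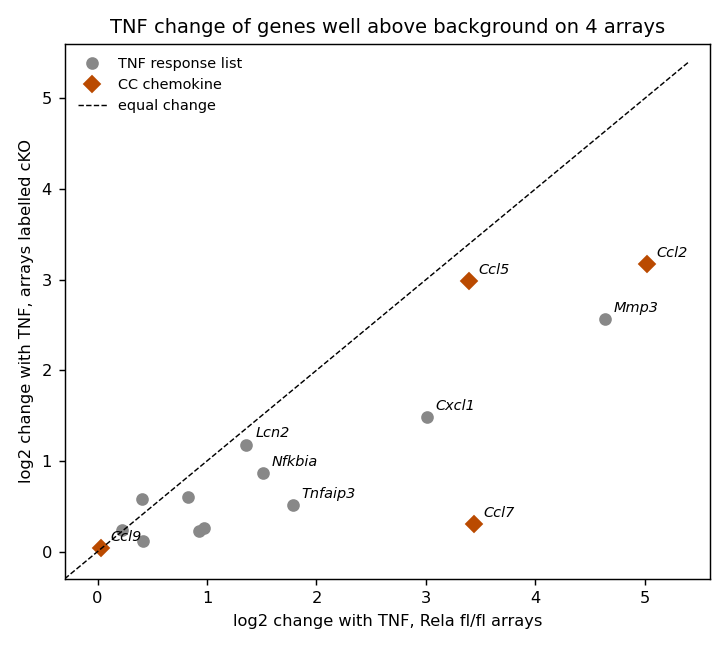
Log2 difference with TNF on the cKO-labelled arrays (vertical) against that in control cells (horizontal) for members (diamonds) and genes of the TNF response list (circles) well above background on all 4 arrays; the dashed line marks equal differences. Ccl2, Ccl5 and Ccl7 lie below the line, Ccl7 farthest at 3.44 and 0.31 with its spot in a patch on 1 array, and Ccl9 lies at 0.03 and 0.04.

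Mmp3, a matrix metalloproteinase, was higher with TNF by 4.64 and 2.56 on the log2 scale in control cells and on the cKO-labelled arrays. Cxcl1, a CXC chemokine that attracts neutrophils, was higher by 3.01 and 1.49, and Lcn2, an iron-sequestering lipocalin, by 1.36 and 1.18. The spot of Lcn2 lay in a patch on the cKO-labelled array without TNF. The IκB gene Nfkbia and the NF-κB inhibitor Tnfaip3 were higher in control cells by 1.51 and 1.78, and their differences on the cKO-labelled arrays were 0.87 and 0.51. Il6 and the acute-phase gene Saa3 were not well above background in control cells without TNF, and with TNF they were higher by at least 2.88 and 7.49. With TNF, Mmp3, Cxcl1, Saa3, Il6, Tnfaip3 and Icam1 were lower on the cKO-labelled array, by log2 differences from -1.34 for Tnfaip3 to a bound of -8.57 for Saa3. These counts use the brightest probe, and a second probe of the adhesion gene Vcam1 was past the limit with TNF in control cells and, at -1.74, between genotypes with TNF. Without TNF, Mmp3 differed by -1.30 on the cKO-labelled array against the control, and Ccl5 by -1.61.

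Of the NF-κB subunit genes Rela, Relb, Rel, Nfkb1 and Nfkb2, 4 were well above background on all 4 arrays and Rel was on none. Relb was higher with TNF in control cells by 1.02 on the log2 scale, and its difference on the cKO-labelled arrays was 0.57. No other subunit reached the limit in any comparison, and Rela differed by 0.26 without and 0.21 with TNF in the direction of the cKO-labelled arrays.

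The patterns most like each member were sought by the root mean square difference of the 4 centred log2 values, among genes with a symbol and no spot in a patch. Over these 4 arrays Ccl2 was nearest to Ccl5 (0.73), Mmp3 (0.75) and Cxcl1 (0.98). Ccl5 was nearest to Mmp3 (0.53), Cxcl1 (0.56) and Cxcl5 (0.71), another neutrophil attractant. Ccl7 had Klra1 (0.60), Gbp2 (0.64) and Cck (0.65) as its nearest patterns, with its patch spot counted. With 4 values per gene, such likeness is a description only. For Ccl9 the nearest were Gpkow, P3h3 and Mtf2, all at 0.01, and thus genes with little change. None are given for Ccl8, whose value in control cells without TNF was not well above background.

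Other CC chemokines did not show the TNF difference of Ccl2, Ccl5 and Ccl7. Of 16 listed, 13 had a probe, 5 were well above background on all 4 arrays and 7 on none. None was higher with TNF in either genotype. Among those on none were Ccl3 and Ccl4, made by activated leukocytes, and Ccl12, a monocyte attractant near Ccl2 in the genome. Ccl19, Ccl25 and Ccl27a, which guide lymphocytes to lymph nodes, thymus and gut, and skin, differed by at most 0.34 on the log2 scale in any comparison by their brightest probe. Ccl6 was lower on the cKO-labelled arrays by -0.78 without and -0.57 with TNF, short of the limit. The latter uses the control array with TNF, where its spot lay in a patch. A second Ccl25 probe was lower on the cKO-labelled arrays, at a bound of -1.10 without TNF and at -1.01 with TNF.

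Ccl17 and Ccl22, both ligands of Ccr4, were the other CC chemokines that reached the limit by their brightest probe. Ccl17 read 309 units in control cells without TNF and between 65.5 and 79.0 on the other arrays. Its log2 difference was -2.06 with TNF in control cells and -2.28 between genotypes without TNF. Its spot lay in a patch on the array where it was high. Ccl22 read 387 units on the cKO-labelled array without TNF, where its spot lay in a patch, and between 3.88 and 7.04 on the other arrays, where it was not well above background. Its log2 bounds were 3.54 between genotypes without TNF and -4.51 with TNF on the cKO-labelled arrays. The part of the patches in these values was not tested.

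**Figure D5:**
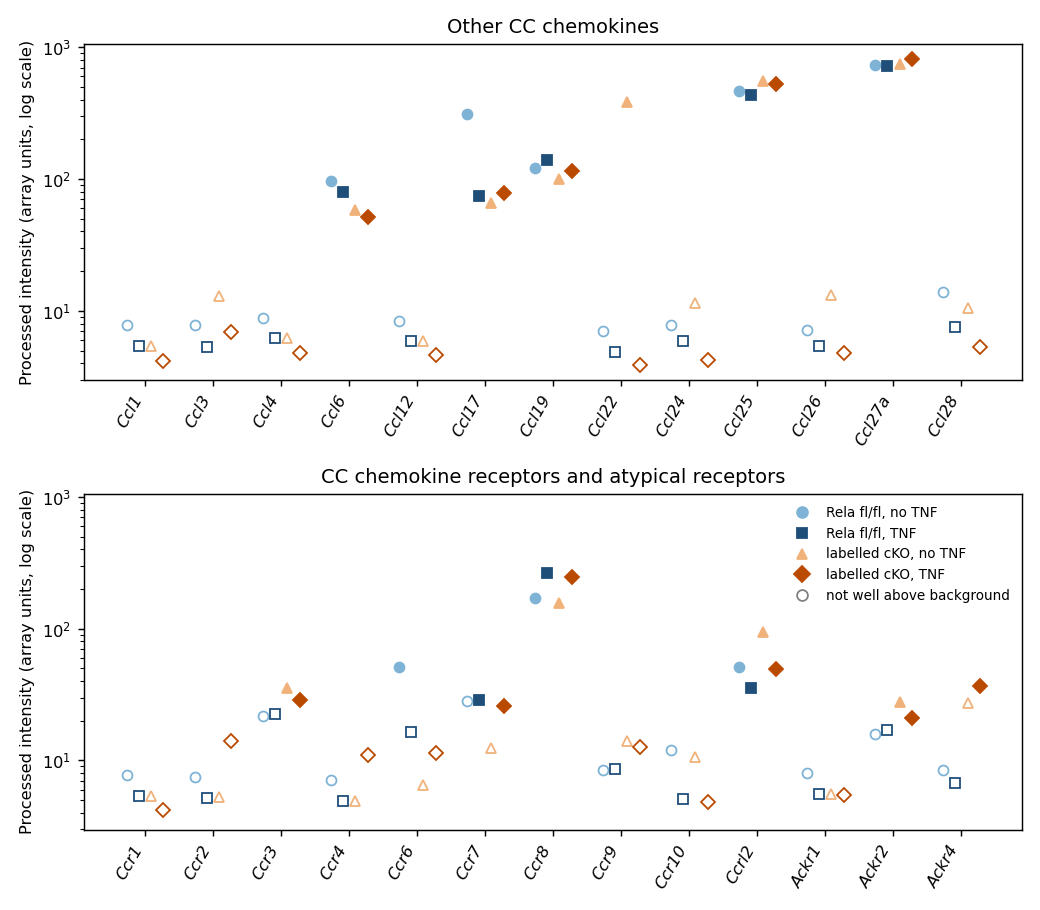
Processed intensity (array units, log scale) of the 13 other CC chemokines (top) and the 13 receptor genes (bottom) on the 4 arrays, with open symbols where the probe was not well above background. The open symbols lie near the bottom of both panels, and the high single points of Ccl17 (309) and Ccl22 (387) are spots in bright patches.

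The receptors were mostly dim. All 13 genes listed of CC receptors and atypical receptors had a probe, 2 were well above background on all 4 arrays and 6 on none. Ccr1 and Ccr2, receptors of Ccl2, Ccl5 or Ccl7, were among those not well above background on any array, and Ccr3 was well above background on both cKO-labelled arrays at 35.2 and 28.8 units. Ccr8, a receptor of T cells and myeloid cells, read 172 and 266 units without and with TNF in control cells, and 155 and 249 on the cKO-labelled arrays. Its log2 difference with TNF was 0.62 and 0.78, short of the limit. The 0.62 uses the control array without TNF, where its spot lay in a patch, and a second Ccr8 probe was not well above background on any array. The chemerin-binding Ccrl2 differed by -0.53 and -0.82, and its spot lay in a patch on the cKO-labelled array without TNF, which the latter uses. Ccr6, the receptor of Ccl20, was well above background only in control cells without TNF, at 51.0 units with its spot in a patch. Its bounds were -1.17 with TNF and -1.68 between genotypes without TNF, the only receptor differences past the limit.

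Markers of other cell types were set beside the chemokines, since leukocytes also make them. Each of the 10 chondrocyte markers was well above background on every array. Their summed signal was 1615 and 1540 times the 75th percentile in control cells without and with TNF, and 1277 and 1305 on the cKO-labelled arrays. Without the matrix genes Col2a1 and Comp, which carried most of it, the sum was 563 and 479 in control cells and 311 and 326 on the cKO-labelled arrays. With TNF, 9 of 10 markers had log2 differences below 0 in control cells and 4 of 10 on the cKO-labelled arrays. The medians were -0.22 and 0.05, and none was past the limit. Between genotypes, 10 of 10 markers had log2 differences below 0 without TNF and 9 of 10 with TNF, with medians of -0.56 and -0.38 against 0.02 and 0.06 over all genes. Matn1, a cartilage matrix protein, was the marker past the limit by its brightest probe, with log2 differences of -1.85 without and -1.18 with TNF on the cKO-labelled arrays against the control. A second probe of the collagen gene Col9a1 was also past it, at -1.23 and -1.12, and its brightest probe, at -0.86 and -0.47, lay in a patch on the control array without TNF.

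Of 11 macrophage and leukocyte markers, 10 had a probe, and 6 passed the detection flag on every array. The leukocyte antigen gene Ptprc and the complement gene C1qa were well above background on none. The summed signal was 39.4 and 36.1 in control cells without and with TNF, and 44.4 and 35.6 on the cKO-labelled arrays. Without Itgam, an integrin gene, the sum was 4.55 and 3.81 in control cells and 4.12 and 3.81 on the cKO-labelled arrays, so that 1 Itgam probe carried most of it. The other Itgam probes disagreed with it, at 24.9 to 337 units against 18728 to 25545, and the 337 was a spot in a patch on the control array without TNF. By the brightest probe of each gene, no marker of this list was higher with TNF in either genotype. Between genotypes, 4 of 8 markers with a value had log2 differences below 0 without TNF and 5 of 8 with TNF, with medians of -0.02 and -0.03. With TNF, Lyz2, a lysozyme gene, and Tyrobp, a myeloid adaptor gene, differed by -0.94 and -0.56, and Mrc1, a macrophage receptor gene, by 0.34, all short of the limit, and Lyz2 was past it with no scaling (-1.01). Mrc1 differed by at least 0.43 with TNF in control cells and by 0.52 on the cKO-labelled arrays. Without TNF, Adgre1, a macrophage surface gene, was higher on the cKO-labelled array by 2.87, with its spot in a patch, and its difference with TNF there was -3.47. A second Adgre1 probe was not well above background on any array. Lyz2 and Tyrobp were lower there, at log2 differences of -2.11 and a bound of -1.61, Lyz2 with its spot in a patch on the other array and a difference of -1.42 with TNF in control cells, and the part of this in the lower Ccl5 was not tested.

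Fibroblast and synovial markers summed to between 258 and 294 on the 4 arrays, and all 6 were well above background on each. With TNF, 5 of 6 had log2 differences above 0 in each genotype, with medians of 0.15 in control cells and 0.37 on the cKO-labelled arrays. None was past the limit with TNF. Dpt and Thy1, genes of fibroblasts, were lower on the cKO-labelled array without TNF, at log2 differences of -1.62 and -1.59. Dpt was also lower with TNF, at -1.16. Of this list, 4 of 6 markers had log2 differences below 0 between genotypes without TNF and 6 of 6 with TNF, where Ccl2, Ccl5 and Ccl7 were also lower, with medians of -0.21 and -0.39. Dpt was read by 10 spots, of which 1 lay in a patch on each of 3 arrays. Of 4 endothelial markers, Pecam1 and Kdr were well above background on each array, at 88.8 to 129 and 10987 to 12107 units, and Cdh5 and Tek on none. A second Kdr probe was not well above background on any array. The part of differing cell composition in the chemokine differences was not tested.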

How the data were processed

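Labelled RNA of primary chondrocytes was hybridised to 4 one-colour SurePrint mouse arrays, 1 per genotype and treatment. The authors deposited each spot's processed intensity, after background subtraction and removal of spatial trends, as written by Agilent Feature Extraction 10.10.1.1 per the submitters' processing notes, together with flags for outlier spots and for signals well above background. They also deposited 1 table of scaled intensity values, each array's processed intensity times 1 factor between 1.77 and 1.83, the basis of which is not given in the sources used here.

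The log2 of the deposited intensity was taken relative to each array's 75th percentile over its 59305 transcript spots. Outlier spots (138 to 225 per array) were left out, spots of a probe were averaged, and the brightest probe stood for a gene. Accessions were matched to symbols through RefSeq's GRCm38.p6 gene table, which held 20435 of 20809 NM accessions. The array files name another assembly (mm9), so no coordinate was taken from them. Promoter coordinates are those of the RefSeq table.

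No p-value was computed with 1 array per condition, and an additive fit of both factors, with 1 residual degree of freedom, was left out. The number of arrays limits the precision, and technical spread came from 399 probes with 10 spots. The counting code was tested on simulated data, which says nothing of the spread between cultures. The named genes are all 7 members, all genes past the limit on the lists of other CC chemokines, CC receptors, NF-κB subunits, TNF response, sex-linked and cell marker genes, with examples for the rest, and the 3 patterns most like each of Ccl2, Ccl5, Ccl7 and Ccl9. Genes named beside these for their role only were chosen after their values were seen. One gene planned for the receptor list is not reported here. Members and lists were chosen with earlier results of these data known. Alternatives were no scaling, quantile normalization alone and after normexp (offset 50) with limma 3.58.1, and the authors' scaled values. Others were 2 filters, limits of 1.5-fold and 3-fold, 2 summaries, and leaving out spots in patches. Results named by normexp are those of normexp followed by quantile normalization. Leaving out spots only in patches of the arrays compared was added after seeing the data. The tools were R 4.3.3 and Python 3.11.15 (pandas 2.3.3, numpy 2.4.6).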

Additional observations from a re-analysis of the deposited data

Results flagged for a closer look

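The difference of Ccl7 between genotypes ran in opposite directions with and without TNF. On the log2 scale the cKO-labelled array minus the control array was 1.52 without TNF and -1.61 with TNF. The difference between both values was not tested, as each rests on 1 array per group. Without TNF, the only Ccl7 spot of the cKO-labelled array lay in a bright patch, and no value without the patch can be had for that array. The part of the patch in the difference was not tested.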

How the results depend on the processing

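The counts of 3 members higher with TNF in control cells, 2 on the cKO-labelled arrays and 3 lower on the cKO-labelled array with TNF were the same under both other scalings, the authors' scaled values, normexp, both limits and both summaries, and with both arrays required to be well above background. With no filter the first was 4, as Ccl8 then differed by 2.03 on the log2 scale. With patches left out on every array, Ccl7 and Ccl9 had no value, and these counts were 2, 2 and 2. The count of 2 members changed between genotypes without TNF was 1 with normexp and quantile normalization, where Ccl5 differed by -0.59. It was also 1 at the 3-fold limit, which Ccl7 at 2.88-fold missed. It was 1 with patches left out, 1 with patches of the arrays compared left out, and 3 with no filter. A value was counted as moved when it lay at least 0.14 on the log2 scale from the main value. It was counted as reversed only when the main value was past the limit and the sign changed. Of 177 member values under the alternatives 10 moved and 0 reversed, and of 2118 values of genes on the other lists 158 moved and 0 reversed. Values short of the limit could change sign, as Ccl9 with TNF on the cKO-labelled arrays did, from -0.08 to 0.04.

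The counts over all genes moved more than those of the members. Normexp again stands for normexp followed by quantile normalization. Genes higher with TNF in control cells, 560, were 208 with both arrays well above background, 1351 with no filter, 1022 at the 1.5-fold limit, 99 without patches and 114 without patches of the arrays compared. Those on the cKO-labelled arrays, 258, were 399 with quantile normalization, 67 with normexp, 100 and 1356 under the filters, 927 and 83 at the limits and 117 without patches. Genes lower on the cKO-labelled array with TNF, 783, were 387 with normexp, 301 and 1528 under the filters, 1392 and 514 at the limits, and 180 and 240 without patches. Genes changed between genotypes without TNF, 1919, were 1040 with normexp, 740 and 4230 under the filters, 3303 and 1240 at the limits, and 391 and 456 without patches. No paired analysis was possible because the groups share fewer than 2 replicate numbers, and the additive fit of genotype and TNF was left out. Another probe in place of the brightest was not run, since each member has 1 probe. Signals near the floors of 15.7 to 32.2 units, as for Ccl8, Ccl11 and Ccl20, allow bounds or no fold.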
